A study of Saccharomyces cerevisiae with 117 samples.

Results

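TDH1 (YJL052W), TDH2 (YJR009C) and TDH3 (YGR192C), the genes of glyceraldehyde-3-phosphate dehydrogenase (GAPDH) in budding yeast, were followed in single cells. They are 3 of the 6420 gene entries counted in each library, and they were found by their identifiers. Of 117 sequenced cells, 97 were used, namely 20 under amino acid starvation (AAS), 12 under hypotonic conditions and 19 isotonic cells in batch 1, and 27 under glucose starvation (GS, cells named Y5) and 19 isotonic cells (named Y7) in batch 2. All 3 genes had reads in all 97 cells, and the fewest reads of any of them in a cell was 67. A further 20 GS cells named Y2, which were sequenced more thinly, stand in the closing section.

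GAPDH oxidises glyceraldehyde 3-phosphate and phosphorylates it in the same step, which makes NADH and the high-energy phosphate that phosphoglycerate kinase then passes to ADP. The reaction runs backwards in gluconeogenesis. Yeast makes the enzyme as tetramers from 3 unlinked or distant genes. Tdh3 is known as the main isoenzyme of cells growing on glucose, Tdh2 as a close relative of it that is also made during growth, and Tdh1 as the isoenzyme best known from cells that enter stationary phase or meet stress. The promoters of these genes are classical targets of the activators Rap1, Gcr1 and Gcr2.

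In the R64 reference, TDH1 lies on the forward strand of chromosome X (bases 338271 to 339269), TDH2 on the reverse strand of chromosome X (453683 to 454681) and TDH3 on the reverse strand of chromosome VII (882812 to 883810). Each has 1 coding exon of 999 bases and no intron, so read counts of the 3 genes can be set side by side without a correction for length. TDH2 and TDH3 differ at 42 of 999 bases, TDH1 and TDH2 at 98, and TDH1 and TDH3 at 111. The 60 bases in which the 3 genes differ most show how a read is told apart, with the 21 positions that are not alike in all 3 genes in capitals. They are coding bases 64 to 123, counted from the start codon, of the R64 sequence held by RefSeq (TDH1 chrX:338334-338393 on the forward strand, TDH2 chrX:454559-454618 and TDH3 chrVII:883688-883747 on the reverse strand).
TDH1: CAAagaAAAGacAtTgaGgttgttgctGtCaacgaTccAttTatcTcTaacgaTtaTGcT
TDH2: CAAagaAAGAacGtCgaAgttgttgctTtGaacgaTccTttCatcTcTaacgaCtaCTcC
TDH3: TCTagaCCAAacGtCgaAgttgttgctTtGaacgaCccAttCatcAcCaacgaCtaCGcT
The opposite case is the longest run that is the same in all 3 genes, 92 bases in the middle of the coding sequence, which holds the codons around the catalytic cysteine. In TDH1 it lies at chrX:338706-338797.
Shared run: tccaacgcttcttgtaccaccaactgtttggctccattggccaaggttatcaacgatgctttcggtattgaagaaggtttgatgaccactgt
Between TDH2 and TDH3 the longest identical run is 173 bases, which is longer than a read of 100 bases. TDH2 and TDH3 differ at 27 bases in the first 333 coding bases, at 8 in the middle 333 and at 7 in the last 333. TDH1 differs from TDH3 at 55, 27 and 29 bases in the same stretches.

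**Figure D1:**
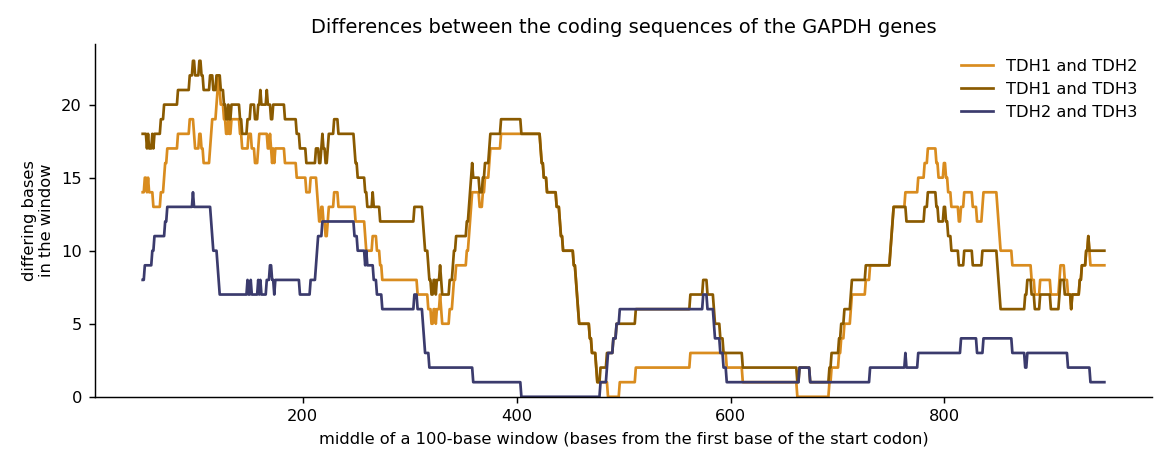
Number of differing bases in each 100-base window of the coding sequence for each pair of GAPDH genes, against the position of the window's middle in bases from the start codon. TDH2 and TDH3 have between 0 and 14 differing bases in a window, with a median of 3, and TDH1 and TDH3 have between 1 and 23, with a median of 10.

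Counts were made from uniquely mapped reads, so reads that identical stretches of these genes kept from being placed uniquely are missing from the values. The reads came in pairs, and the windows given next take no account of a read's mate. Of the 900 windows of 100 bases in each coding sequence, 4.56% in TDH1, 12.8% in TDH2 and 8.22% in TDH3 occur a second time elsewhere in the genome. The share of a gene's reads lost in this way is the same for every cell only if reads fall alike along the gene, and coverage in these libraries declined towards the 5′ end, with a difference between the batches. How far this moved the shares was not tested. Windows that differ from another TDH gene at 2 bases or fewer made up 21.4% in TDH1, 51.3% in TDH2 and 42.8% in TDH3. The part of reads placed on the wrong copy there was not tested. Reads that could not be placed uniquely numbered a median of 12.2 for each 100 gene reads in AAS cells, 18.8 in hypotonic cells and 14.5 in isotonic cells of batch 1. In batch 2 the medians were 18.9 in GS cells and 150.4 in isotonic cells. An entry that overlaps TDH1 on the other strand, YJL052C-A, had 227 reads in AAS cells, 23 in hypotonic cells and 0 in the isotonic cells of both batches and in GS cells. TDH1 itself had 164479 reads or more in each of these groups.

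Every cell was a spheroplast, that is a cell freed of its wall with Zymolyase, from 1 clone of S288C, a laboratory strain. Spheroplasts were moved from S medium, which holds glucose, amino acids and 1 M sorbitol, into S medium without amino acids (AAS), without sorbitol (hypotonic) or without glucose (GS), or were kept in full S medium (isotonic). The labels give an exposure of 30 min at least and 5 h at most, not the exposure of each cell, the methods of the paper give a shorter upper limit, and no separate cultures are named. Each group was therefore treated as 1 sample. The spread given is over cells, no test between groups was run, and a gene is called 2-fold higher or lower by size alone. Reads on genes per cell ran from 3112955 to 8502504 in AAS, from 4297691 to 7870247 in hypotonic cells, from 3603505 to 55179414 in isotonic cells of batch 1, from 705807 to 2535593 in GS and from 14245 to 1133518 in isotonic cells of batch 2. Levels are counts per 1000000 reads on genes (CPM), log2 fold changes are ratios of mean CPM after adding 1 CPM to each mean, and intervals are 95% and cover counting error only, since the reads carry no molecular identifiers. The 19 isotonic cells of batch 1 serve as reference for both AAS and hypotonic cells.

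All 3 genes were lower under AAS than in isotonic cells. The size of the difference depended on the measure, at -1.25 for TDH1, -1.43 for TDH2 and -1.41 for TDH3 on the log2 scale from mean CPM, -2.10, -1.72 and -1.49 from medians, and -0.67, -1.26 and -1.68 over summed reads. TDH3 ran from 6215 to 41372 CPM over the 20 AAS cells with a median of 12265 CPM, against 14501 to 165595 CPM with a median of 34343 CPM over the 19 isotonic cells. In 12 of the 20 AAS cells TDH3 lay below every isotonic cell, and in 19 it lay below the isotonic median. TDH2 ran from 1041 to 11559 CPM with a median of 2778 CPM in AAS cells, against 170.2 to 30017 CPM with a median of 9185 CPM in isotonic cells. TDH1 ran from 136.5 to 8709 CPM with a median of 949.6 CPM in AAS cells, against 30.4 to 14531 CPM with a median of 4069 CPM in isotonic cells. The groups overlapped for each gene, and for TDH1 the lowest isotonic cells, A34 at 30.4 CPM and A27 at 132.2 CPM, lay below every AAS cell.

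As means over cells, TDH3 was 15365 ± 8765 CPM under AAS (SD over 20 cells) and 40730 ± 32629 CPM without it (SD over 19 isotonic cells), which gave -1.41 on the log2 scale. TDH2 averaged 3799 ± 2891 CPM under AAS, against 10219 ± 7437 CPM in isotonic cells (-1.43), and TDH1 1533 ± 1852 and 3658 ± 3522 CPM (-1.25). Thus 3 of 3 genes were at least 2-fold lower, where 12.3% of the 5814 genes compared were, and none was at least 2-fold higher, where 39.8% were. The median gene stood at 0.65. Together they took 2.07 ± 1.21% of the reads on genes per AAS cell, against 5.46 ± 3.66% per isotonic cell. Summed over cells, TDH3 had 1890732 reads under AAS (interval 1888038 to 1893429) and 12276386 in isotonic cells (12269520 to 12283255). The intervals are narrow beside the spread between cells.

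The size of the AAS difference moved with the cells taken, and its direction did not in any alternative run. Scaling by ERCC spike-in reads was not among these alternatives. Only 7 of the 19 isotonic cells of batch 1 had ERCC reads, against 20 of 20 AAS cells. The 7 AAS cells with an X at the end of their name, a mark the labels do not explain, held 31830 ± 14048 CPM of TDH1, TDH2 and TDH3 together, against 14703 ± 4658 CPM in the 13 AAS cells without it. Among isotonic cells, the 11 named A held 68304 ± 42425 CPM and the 8 whose names begin with E or G 35773 ± 13312 CPM. The log2 fold change of the summed genes was -1.40 with all cells, -0.78 with the AAS cells named with X, -0.79 when set against those with E or G in their names and -2.29 with summed reads scaled by TMM. TDH1 alone stood at -0.67 over summed reads, at -0.85 as a difference of mean log2 values and at -0.54 with the AAS cells named with X, and was at -0.99 without isotonic cell G50, and so did not pass 2-fold there. TDH2 and TDH3 did not pass it either with the AAS cells named with X, at -0.66 and -0.84, or against the isotonic cells named E and G, at -0.78 and -0.73. Isotonic cell A35, at 165595 CPM of TDH3 the highest of all 97 cells, moved the TDH3 value only to -1.14 when it was left out.

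**Figure D2:**
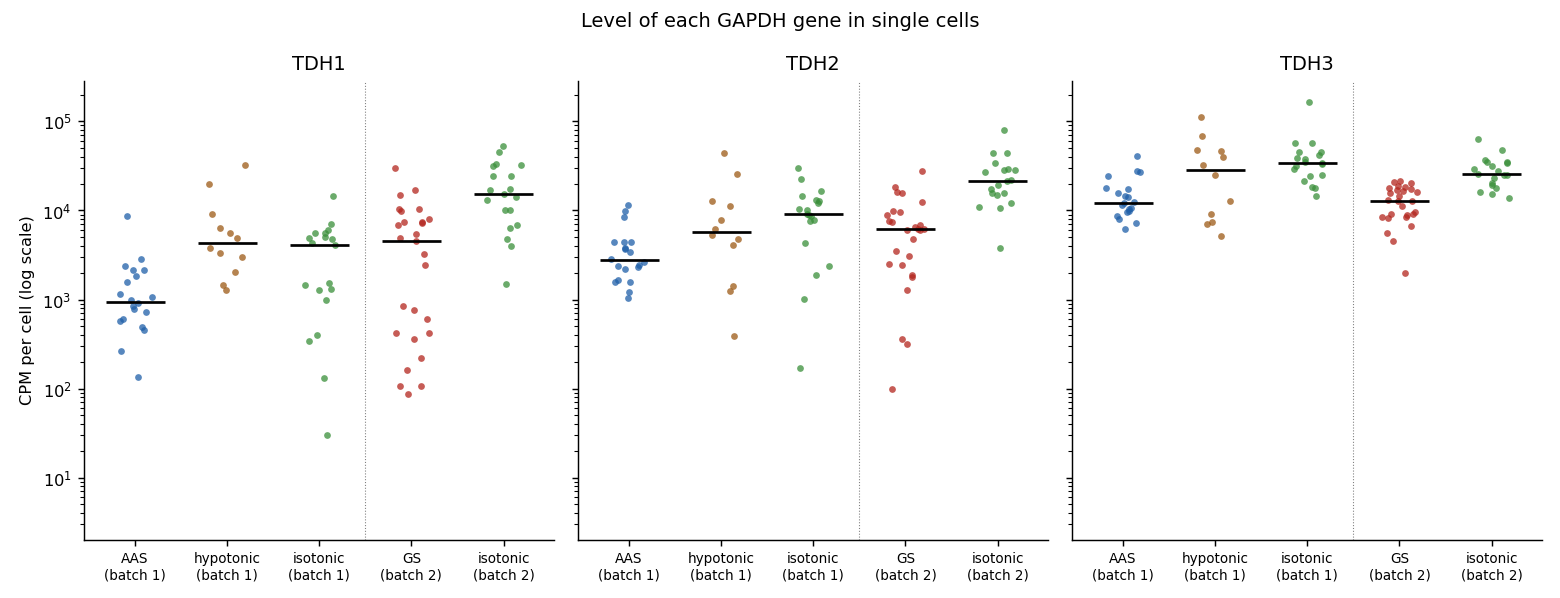
CPM of TDH1, TDH2 and TDH3 (log scale), with 1 point per cell and a bar at each group's median, for the 3 groups of batch 1 and both groups of batch 2. AAS medians (949.6, 2778 and 12265 CPM) and GS medians (4513, 6213 and 12920 CPM) lie below those of the isotonic cells of their batch, and the groups overlap.

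Under the hypotonic condition TDH1 alone of the 3 genes passed 2-fold. The names of all hypotonic cells end with X, whereas among the isotonic cells of batch 1 only those of E10X and E11X do. What goes with this mark can therefore hardly be told apart from the treatment. TDH1 ran from 1270 to 32141 CPM over the 12 hypotonic cells with a median of 4308 CPM, and its mean was 7740 ± 9199 CPM, against 3658 ± 3522 CPM in isotonic cells. The log2 fold change was 1.08, and 1 of 3 genes was thus at least 2-fold higher, where 19.3% of 5575 genes were. The difference lay in few cells. The pair of hypotonic cells named C, C80X and C81X, held 19892 and 32141 CPM of TDH1, above every isotonic cell, while the highest of the 10 cells named F held 9059 CPM. With the 10 cells named F alone the log2 fold change of TDH1 was 0.16, and the medians of the groups gave 0.08.

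TDH2 averaged 10421 ± 12737 CPM in hypotonic cells, against 10219 ± 7437 CPM in isotonic ones, and TDH3 34387 ± 31574 and 40730 ± 32629 CPM, log2 fold changes of 0.03 and -0.24 that lie well within the spread over cells. None of the 3 genes was at least 2-fold lower, which held for 31.8% of the genes compared, and the median gene stood at -0.32. TDH3 split the hypotonic cells widely. Cells F20X to F24X held 5223 to 12801 CPM, below every isotonic cell, the other cells named F held 24806 to 47850 CPM, and C80X and C81X held 68297 and 111396 CPM. The low cells all have consecutive numbers in their names, and neither the labels nor the paper say what these numbers stand for. They also had the fewest genes with a read of the hypotonic cells, at 1482 to 2487 against 2855 to 5650 in the others, and over the 12 hypotonic cells TDH3 followed the number of genes with a read at a rho of 0.83. The part of library quality in the low values was not tested. Without these 5 cells the log2 fold change was 0.38 for TDH3, 0.57 for TDH2 and 1.51 for TDH1. In C81X the 3 genes together took 18.8% of the reads on genes, against 0.79% in F24X. Without A35, the TDH3 value was 0.03.

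Under GS all 3 genes were lower than in the isotonic cells of batch 2 when scaled to the reads on genes. TDH3 ran from 1971 to 21641 CPM over 27 GS cells with a median of 12920 CPM, against 13707 to 63975 CPM with a median of 25369 CPM over 19 isotonic cells. All 27 GS cells lay below the isotonic median and 15 below every isotonic cell. TDH2 ran from 97.99 to 28075 CPM with a median of 6213 CPM in GS cells, against 3820 to 80590 CPM with a median of 21445 CPM in isotonic cells. TDH1 ran from 87.2 to 30301 CPM with a median of 4513 CPM in GS cells, against 1482 to 52378 CPM with a median of 15281 CPM in isotonic cells. The widest gap of TDH1 on the log scale in GS cells had 11 cells at 839.7 CPM or less and 16 at 2454 CPM or more. The lowest isotonic cell, Y720, was at 1482 CPM. TDH2 had such a gap in GS cells as well, with 3 cells at 361.4 CPM or less and 24 at 1271 CPM or more.

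The mean level of TDH1 was 5720 ± 6860 CPM under GS and 19168 ± 14243 CPM in isotonic cells (log2 fold change -1.74), that of TDH2 7195 ± 6451 and 25285 ± 17218 CPM (-1.81), and that of TDH3 12812 ± 5402 and 28486 ± 12234 CPM (-1.15). Thus 3 of 3 genes were at least 2-fold lower, where 23.8% of 1856 genes were, and none was at least 2-fold higher, where 43.3% were. The median gene stood at 0.57. TDH3 was just short of 2-fold with the cells the study kept (-0.96), which for batch 2 were read from cell names in a figure of the paper,, with medians in place of means (-0.97) and with cells of at least 100000 gene reads (-0.97). The 3 genes took 2.57 ± 1.27% of the reads on genes under GS and 7.29 ± 2.77% in isotonic cells. This direction depends on the scale. The median part of ERCC spike-in RNA among gene and ERCC reads was 43.99% in GS cells and 79.2% in isotonic cells, and per ERCC read the log2 fold changes were 0.59 for TDH1, 0.60 for TDH2 and 1.47 for TDH3, with the median gene moved by 2.28. The 3 genes together had a median of 24.5 reads per 1000 ERCC reads in GS cells and 15.5 in isotonic cells, with ranges of 0.60 to 108.5 and 1.02 to 60.2 that overlap nearly throughout. On both scales they stood below the median gene. Depth differed as well, at a median of 1428533 reads on genes per GS cell and 433165 per isotonic cell.

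Within batch 1, the order of mean levels was isotonic, hypotonic, AAS for TDH3, and hypotonic, isotonic, AAS for TDH1 and TDH2. For all 3 genes the difference between hypotonic and isotonic cells was smaller than the SD over hypotonic cells. Among all 6019 genes with a coding length in the annotation, ranked by mean CPM per kb, TDH3 came first in AAS, hypotonic and isotonic cells of batch 1, at rank 5 in GS cells and at rank 4 in isotonic cells of batch 2. TDH2 ranked 11 under AAS, 5 under the hypotonic condition and 7 in isotonic cells of batch 1, and 9 under GS and 5 in isotonic cells of batch 2. TDH1 ranked 49, 9 and 22 in the groups of batch 1, in the same order, and 15 under GS and 7 in isotonic cells of batch 2. The median rank of TDH1 within a cell was 106 under AAS and 25 in isotonic cells, and 54 under GS and 14 in isotonic cells of batch 2.

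The share of each gene among a cell's TDH reads does not depend on library scaling. Each cell had at least 1252 TDH reads, so that the exact binomial interval of a share was at most 5.46 percentage points wide. In batch 1 TDH3 had the most reads of the 3 genes in 20 of 20 AAS cells, 12 of 12 hypotonic cells and 19 of 19 isotonic cells. It took 75.1 ± 7.47% of the TDH reads per AAS cell (lowest 57.05%, median 75.3%, highest 88.0%), against 73.9 ± 11.2% per isotonic cell (46.1%, 72.1% and 92.3%). TDH2 took 17.9 ± 6.57% under AAS and 18.2 ± 9.32% in isotonic cells, and TDH1 6.94 ± 4.66% and 7.89 ± 7.59%. The differences, 1.26, -0.31 and -0.96 percentage points, are small beside the spread over cells. Over summed reads the TDH3 difference was -6.73 points, a measure in which each cell counts by its reads.

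**Figure D3:**
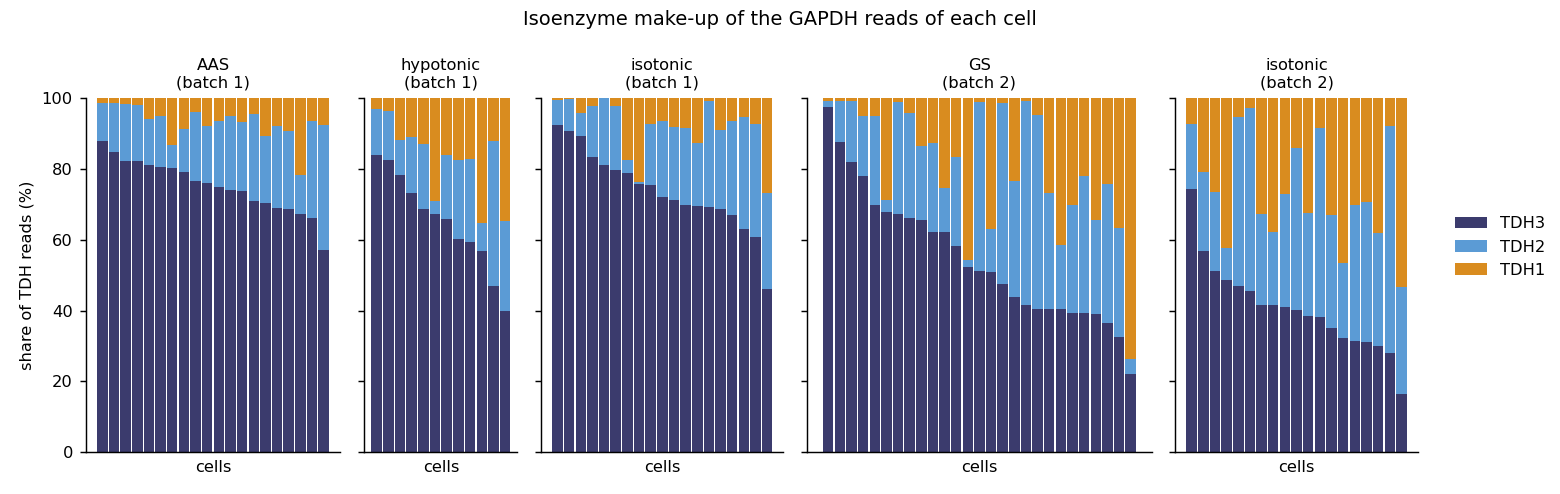
Share of the TDH reads that fell on TDH3, TDH2 and TDH1 (percent), with 1 bar per cell, ordered by the TDH3 share within each group. TDH3 is the largest part of each bar in batch 1, and in batch 2 it is so in 20 of 27 GS cells and 9 of 19 isotonic cells.

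TDH1 took a larger share in hypotonic cells. Here too the X in the names of all hypotonic cells, and of few isotonic ones, can hardly be told apart from the treatment. Its share ran from 3.04 to 35.3% with a median of 14.5% over 12 hypotonic cells, against 0.064 to 26.9% with a median of 6.57% over 19 isotonic cells. The means were 17.02 ± 10.7% in hypotonic cells and 7.89 ± 7.59% in isotonic cells, a difference of 9.13 percentage points. Of the 12 hypotonic cells, 10 lay above the isotonic median and 3 (F21X, F22X and F23X, at 34.6, 28.98 and 35.3%) above every isotonic cell. TDH3 took 65.3 ± 13.5% in hypotonic and 73.9 ± 11.2% in isotonic cells, a difference of -8.62 points, and TDH2 17.7 ± 9.80% and 18.2 ± 9.32%. These 3 cells belong to the 5 cells F20X to F24X, in which 1482 to 2487 genes had a read, against 2855 to 5650 in the other 7 hypotonic cells and 1816 to 5679 in isotonic cells. Without F20X to F24X, an alternative chosen after seeing the data, the TDH1 difference was 3.13 points and the TDH3 difference -1.57 points, whereas without C80X and C81X the TDH1 difference was 9.07 points. The part of library quality in the higher TDH1 share was not tested. TDH1 exceeded TDH2 in 4 of 12 hypotonic cells, in 2 of 20 AAS cells and in 2 of 19 isotonic cells.

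Under GS the make-up leaned to TDH3. TDH3 took 54.9 ± 18.3% of the TDH reads per GS cell (lowest 22.001%, median 51.3%, highest 97.3%), against 40.5 ± 12.4% per isotonic cell (16.5%, 40.1% and 74.4%), a difference of 14.4 percentage points. Of the 27 GS cells, 21 lay above the isotonic median and 4 above every isotonic cell. TDH2 took 25.9 ± 15.7% under GS and 33.4 ± 14.1% in isotonic cells, a difference of -7.55 points, and TDH1 19.3 ± 18.2% and 26.1 ± 14.9%, a difference of -6.87 points. TDH1 held under 5% of the TDH reads in 10 of 27 GS cells and in 1 of 19 isotonic cells.

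Single GS cells differed strongly in make-up. In Y527 TDH1 took 73.7% of the TDH reads at 30301 CPM, and TDH3 22.001%. In Y530 TDH3 took 97.3% at 18888 CPM, with TDH1 at 160.9 CPM and TDH2 at 361.4 CPM. In Y509 TDH2 took 57.4% and TDH1 0.98%. TDH3 had the most reads in 20 GS cells, TDH2 in 4 and TDH1 in 3, against 9, 7 and 3 of the 19 isotonic cells of batch 2. In the isotonic cells of this batch no gene thus stood above the others throughout, unlike in batch 1, where the same medium gave TDH3 the most reads in each cell. The batches were not compared further, since depth, ERCC share and coverage differ between them.

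**Figure D4:**
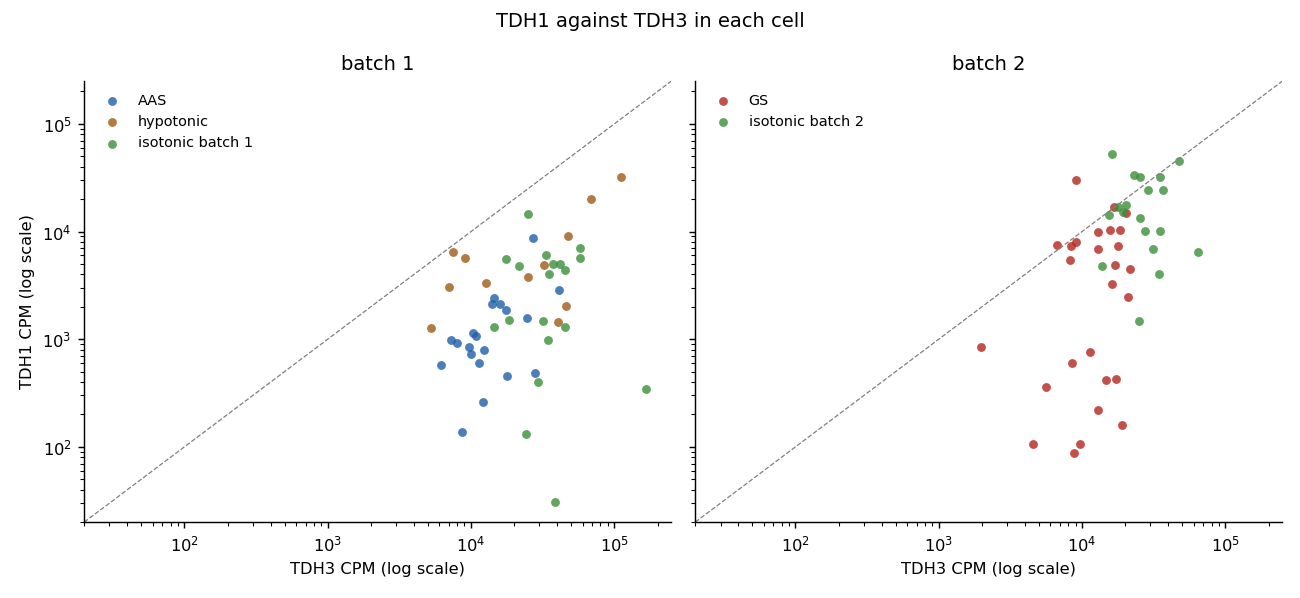
TDH1 against TDH3 in each cell, in CPM on log scales, for the 3 groups of batch 1 and both groups of batch 2; the dashed line marks equal levels. TDH3 spans 1971 to 21641 CPM over GS cells and TDH1 87.2 to 30301 CPM, and in batch 1 each cell lies below the line.

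TDH1 varied most between cells in each group but the hypotonic one, where TDH2 did. The SD of log2 CPM for TDH1 was 1.32 over AAS, 1.41 over hypotonic and 2.24 over isotonic cells of batch 1, and 2.59 over GS and 1.32 over isotonic cells of batch 2. For TDH3 the same SDs were 0.71, 1.46, 0.78, 0.79 and 0.57. TDH3 was thus the steadiest of the 3 genes in each group but the hypotonic one, where TDH1 was slightly steadier, and TDH2 lay between the others or above both. The fewest reads behind a TDH1 value were 93 in the GS cells. Reads are amplified copies without molecular identifiers, and the part of amplification in the spread over cells was not tested.

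In batch 1 the levels of TDH2 and TDH3 had a higher rho with each other than either had with TDH1. Over the 51 cells of batch 1, Spearman's rho of log2(CPM + 1) was 0.77 for TDH2 with TDH3 (Pearson's r 0.72), 0.40 for TDH1 with TDH2 and 0.38 for TDH1 with TDH3. Within groups, TDH2 with TDH3 gave 0.70 over 20 AAS cells, 0.86 over 12 hypotonic cells and 0.68 over 19 isotonic cells, and 0.45 over 27 GS cells and 0.36 over 19 isotonic cells of batch 2. Over the 21 GS cells the study kept the order was another one, at 0.17 for TDH2 with TDH3, 0.31 for TDH1 with TDH2 and 0.23 for TDH1 with TDH3. TDH1 with TDH3 gave 0.43, 0.55 and 0.07 in the groups of batch 1 and 0.22 and -0.04 in those of batch 2, in the same order. These are descriptions across cells that share library preparation and depth. TDH2 and TDH3 also share long identical stretches, and the part of reads placed on the wrong copy was not tested.

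The genes most like each member over the 51 cells of batch 1 were mostly other glycolytic genes, out of 5079 that had reads in 50% or more of these cells. For TDH3 they were ENO2, the enolase of growing cells (rho 0.91), FBA1, aldolase (0.85), and PDC1, the main pyruvate decarboxylase (0.79). For TDH2 they were ENO2 (0.78), FBA1 (0.73) and GPM1, phosphoglycerate mutase (0.73). For TDH1 they were ENO1, the other enolase (0.61), GPM1 (0.61) and THR1, homoserine kinase of threonine synthesis (0.54). These values span groups that differ in level. Within groups, rho of TDH3 with ENO2 was 0.84 over AAS, 0.94 over hypotonic and 0.73 over isotonic cells, with FBA1 0.62, 0.90 and 0.82, and with PDC1 0.46, 0.71 and 0.52. GPM1 stood above ENO2 within AAS cells, at 0.96, and slightly within isotonic cells, at 0.74. Within isotonic cells CDC19, the main pyruvate kinase, at 0.86 and TPI1, triose phosphate isomerase, at 0.78 also stood above ENO2. For TDH1, rho with ENO1 was 0.38, 0.77 and 0.69 in the same order of groups, and with GPM1 0.50, 0.76 and 0.37. Over the 46 cells of batch 2, among 596 genes, the highest values were lower and fewer of them fell on glycolysis. TDH3 was most like ASC1, a ribosome-bound scaffold protein (0.63), ENO2 (0.59) and FKS1, a glucan synthase subunit (0.56). TDH2 was most like CCW14, a cell wall protein (0.59), FKS1 (0.55) and ARO4, which starts aromatic amino acid synthesis (0.53). TDH1 was most like the ribosomal protein genes RPL2B (0.54), RPS16A (0.53) and RPL1B (0.53). These values too span groups that differ in level. Within GS cells alone, rho was 0.32 for TDH3 with ASC1, 0.17 for TDH2 with FKS1 and 0.20 for TDH1 with RPL2B. Within isotonic cells the same pairs gave 0.46, 0.17 and 0.39. TDH2 with CCW14 gave 0.32 in GS and 0.62 in isotonic cells. Over the 46 cells, rho with log10 of the reads on genes was -0.35 for TDH1, -0.56 for TDH2 and -0.52 for TDH3. The part of depth in the likenesses was not tested.

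Among the genes before the GAPDH step, the log2 fold change of FBA1 under AAS was close to those of TDH2 and TDH3. FBA1 averaged 4854 ± 2111 CPM in AAS cells, against 12444 ± 7049 CPM in isotonic ones, -1.36 on the log2 scale, while TPI1 stood at -0.63 and HXK2, the hexokinase of glucose-grown cells, at -2.49. Of the 8 genes of upper glycolysis, 1 was at least 2-fold higher under AAS, 2 lower, and the median was -0.45, against 0.65 over all genes. Of the 8 genes of lower glycolysis 1 was higher and 1 lower, with a median of -0.50, where 39.8% of all genes were higher and 12.3% lower. The lower one was ENO2, at 7458 ± 5116 CPM under AAS, against 22999.5 ± 10573 CPM in isotonic cells (-1.62), whereas ENO1 stood at -0.30, PGK1, phosphoglycerate kinase, at -0.02 and GPM1 at -0.69. The genes of these steps thus differed in how far they lay from the isotonic level.

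For the enzymes that turn NADH from the GAPDH reaction back to NAD+, or make the acetaldehyde for it, 2 of 10 were at least 2-fold higher and 3 lower under AAS, where 39.8% and 12.3% of all genes compared were. PDC1 averaged 5355 ± 3153 CPM under AAS, against 24196 ± 9706 CPM in isotonic cells (-2.18), and ADH1, the main alcohol dehydrogenase of fermentation, 3662 ± 1491 and 8240 ± 6761 CPM (-1.17). GPD1, glycerol-3-phosphate dehydrogenase, stood at 0.91 and its sister GPD2 at -0.24. The genes of this list at least 2-fold higher were PDC6 (5.96) and ADH4 (1.21). Of the 4 regulators, 2 were at least 2-fold higher and none lower, which is near the 39.8% of all genes that were higher. GCR1 averaged 83.4 ± 92.2 CPM under AAS and 7.31 ± 13.3 CPM in isotonic cells (3.34), RAP1 119.6 ± 193.3 and 57.1 ± 89.2 CPM (1.05), GCR2 stood at 0.93 and TYE7 at 0.39. The SD over cells exceeded the mean in both groups for GCR1 and RAP1.

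In hypotonic cells the neighbours of the GAPDH step stood lower or near the isotonic level. TPI1 averaged 839.3 ± 857.8 CPM in hypotonic cells, against 2137 ± 1409 CPM in isotonic ones (-1.35), FBA1 stood at -0.22, PGK1 at -0.46 and GPM1 at 0.13. Of 8 genes of upper glycolysis none was at least 2-fold higher and 2 were lower, and of 8 genes of lower glycolysis 1 was higher and 2 lower, where 19.3% of all genes were higher and 31.8% lower. TYE7 was the regulator at least 2-fold lower (-1.85), with GCR1 at 0.54, GCR2 at 0.18 and RAP1 at -0.86. PDC1 stood at -1.10, ADH1 at -0.68, GPD1 at -1.09 and GPD2 at 0.28. Of the 10 genes that serve NADH reoxidation, 3 were at least 2-fold higher and 2 lower, beside the same shares of all genes. The higher ones were ADH2 (2.64), PDC6 (2.16) and ADH3 (1.13).

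**Figure D5:**
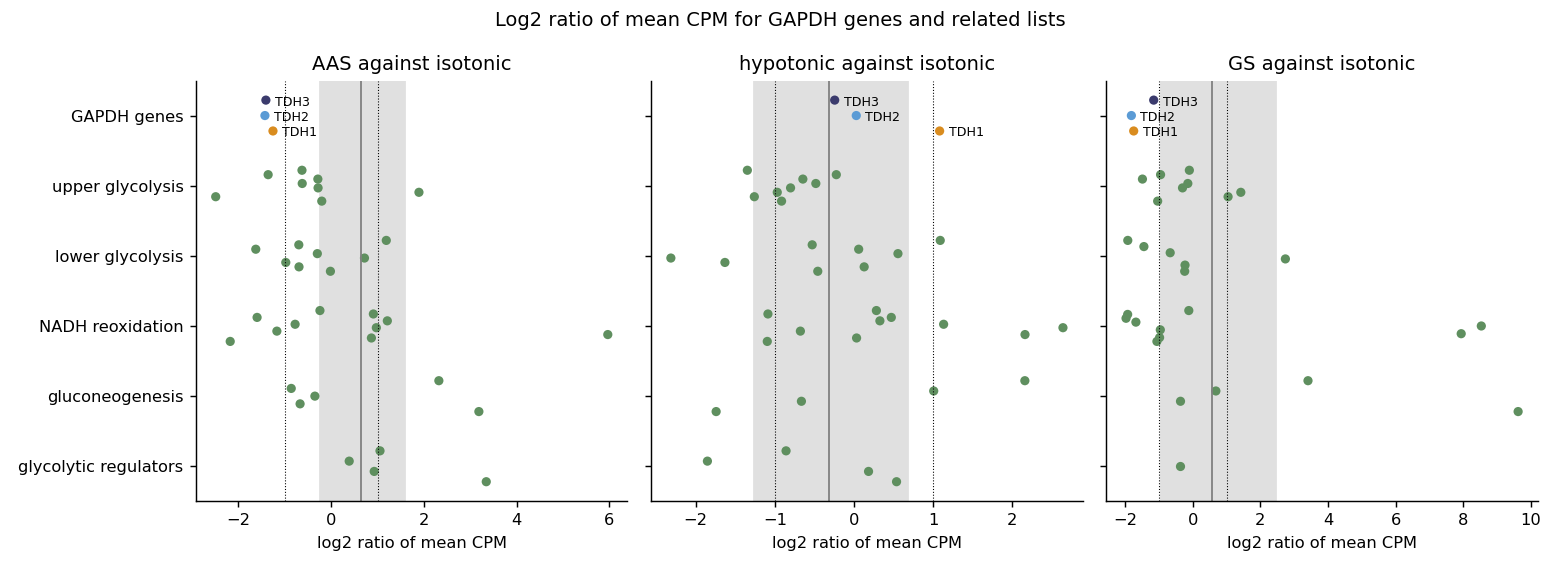
Log2 ratio of mean CPM (after adding 1 CPM) for the GAPDH genes and for 5 lists of related genes in AAS, hypotonic and GS cells against the isotonic cells of their batch. The grey band runs from the lower to the upper quartile of all genes compared, the grey line their median and the dotted lines 2-fold; the GAPDH genes lie between -1.43 and -1.25 under AAS and between -1.81 and -1.15 under GS, and PCK1, unread in isotonic cells of batch 2, is drawn at 9.62.

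Under GS none of the 4 genes around the GAPDH step passed 2-fold. FBA1 averaged 4208 ± 3956 CPM in GS and 8129 ± 14232 CPM in isotonic cells (-0.95), TPI1 122.6 ± 146.1 and 131.3 ± 171.6 CPM (-0.10), PGK1 20.3 ± 31.2 and 24.1 ± 33.9 CPM (-0.24) and GPM1 19856 ± 15158 and 23234 ± 13484 CPM (-0.23). PGK1 had 904 reads in 20 of 27 GS cells and 191 reads in 14 of 19 isotonic cells, so its ratio rests on few reads. TPI1 had 4507 and 959 reads. Further down, ENO2 stood at -1.44, ENO1 at -0.67 and CDC19 at -1.92. Of 8 genes of upper glycolysis 2 were at least 2-fold higher and 2 lower, and of 6 genes of lower glycolysis that passed the detection filter 1 was higher and 2 lower, where 43.3% of all genes were higher, 23.8% lower and the median was 0.57. The higher ones of upper glycolysis were GLK1 (1.42, 112 reads against 4) and HXK2 (1.05). HXK2 averaged 541 ± 2745 CPM in GS cells, was read in 6 of 27 and had a median of 0 CPM. In isotonic cells it was read in 12 of 19, with a median of 10.9 CPM. The paper reports lower HXK2 expression under GS. PDC1 stood at -1.06, ADH1 at -0.96, GPD1 at -1.92 and GPD2 at -0.11. Of the genes that serve NADH reoxidation, 9 passed the filter. At least 2-fold higher were 2 of these and 4 were lower, where 43.3% and 23.8% of all genes were. The higher ones were ADH2 (8.54, read in 26 of 27 GS and 15 of 19 isotonic cells) and PDC6 (7.94, read in 16 and 4). ADH2 averaged 5087 ± 9031 CPM in GS cells, but its medians were 29.8 CPM there and 9.51 CPM in isotonic cells. PDC6 averaged 989 ± 3479 CPM in GS cells, with medians of 0.98 and 0 CPM. Of the 4 regulators only TYE7 passed the filter, at -0.39. These values are CPM, and scaling by ERCC moved the median gene by 2.28.

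Gluconeogenesis, which uses GAPDH in reverse, is repressed by glucose. PCK1, phosphoenolpyruvate carboxykinase, had 31087 reads in 12 of 27 GS cells and 0 reads in 19 isotonic cells, which is at least 2048-fold higher over summed reads with a floor of 3 reads in the isotonic group. FBP1, fructose-1,6-bisphosphatase, had 24 reads in 2 of 27 GS cells and none in isotonic cells. Of the 4 genes of this list that passed the filter, 2 were at least 2-fold higher under GS and none was lower, near the 43.3% of all genes that were higher, with a median of 2.05, and this median stays the same with PCK1 at its lower limit. PCK1 is among the higher ones, and it passed the filter through the GS cells alone. These cells also had more reads on genes, at a median of 1428533 against 433165 in isotonic cells, which favours genes read under GS. Under AAS 2 of 5 were higher, near the 39.8% of all genes, and none lower, with FBP1 at 33.6 ± 46.5 CPM in AAS cells and 2.80 ± 7.95 CPM in isotonic cells (3.19) and PCK1 at -0.67. Under the hypotonic condition 2 of 4 were higher and 1, PCK1 (-1.74), was at least 2-fold lower, where 19.3% and 31.8% of all genes were.

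Other steps of glycolysis with a pair of isoenzymes had another make-up under AAS. ENO1 took 49.8 ± 12.1% of the enolase reads per AAS cell, against 27.1 ± 9.91% per isotonic cell, and HXK1 78.4 ± 27.7% and 42.7 ± 26.8% of the HXK1 and HXK2 reads. In hypotonic cells ENO1 took 31.1 ± 15.8% and HXK1 51.8 ± 35.05%, against the same isotonic values. Under GS ENO1 took 72.5 ± 21.4% over 27 cells and 54.5 ± 19.7% over 18 isotonic cells of batch 2. PYK2, the minor pyruvate kinase, took 5.19 ± 5.89% of pyruvate kinase reads under AAS and 1.60 ± 3.10% in isotonic cells. It had no read in any of the 25 GS cells with enough reads, and took 1.89 ± 4.12% over 15 isotonic cells of batch 2. Against that, the mean share of TDH1 differed by -0.96 percentage points under AAS.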

How the data were processed

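The poly(A) RNA of each spheroplast was reverse transcribed from an oligo-dT primer, and the cDNA was amplified and read as pairs of 100 bases. The authors mapped reads to R64 with STAR 2.5.2, and the deposited counts are uniquely mapped reads per gene from HTSeq at default settings, not normalized. Whether reads of TDH1 and of the overlapping entry YJL052C-A can be told apart by strand was not tested. Rows naming no gene stayed out of all totals, and held 1.05 to 72.9% of the reads of a cell. ERCC rows were left out as well.

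CPM, shares of TDH reads (cells with at least 100 of them, which all 97 had), log2 ratios of mean CPM with a pseudocount of 1 CPM, and Spearman's rho were computed with Python 3.11.15, NumPy 2.4.6, SciPy 1.17.1 and pandas 2.3.3. Counts of genes cover those read in 20% or more of both groups together. Poisson and Clopper-Pearson intervals are exact. Coding sequences came from RefSeq's R64 genome. The measure was run on simulated counts with planted fold changes. These held no batches, named subsets of cells or ERCC reads, so they cannot show how such differences move the values. edgeR 4.0.16 (TMM) and DESeq2 1.42.0 (R 4.3.3) gave alternative scalings only. Batches were not mixed.

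Named genes were the 3 members, their neighbours, isoenzyme pairs and regulators from fixed lists, and the 3 genes of highest rho for each member in each batch, among genes read in at least 50% of cells. The members and lists were chosen with earlier results of these data known.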

Additional observations from a re-analysis of the deposited data

Results flagged for a closer look

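Reads on YJL052C-A, the entry that overlaps TDH1 on the other strand and enters no comparison, were seen only in stressed cells of batch 1. AAS cells held 227 such reads, in 5 of 20 cells with 189 of them in cell D29, and hypotonic cells held 23, all in C81X. The 19 isotonic cells of batch 1, the 27 GS cells and the 19 isotonic cells of batch 2 held 0, which is a limit of 3 reads over each group for counting error. TDH1 had 182325 reads in the AAS cells and 534929 in the hypotonic cells. Whether these reads come from the entry itself was not tested.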

How the results depend on the processing

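Under other settings, 200 log2 fold changes of the members and their sum stayed within the spread over cells of the value reported, 4 moved further and 4 turned round, and 107 share differences stayed within it and 1 did not. This spread is the SD over the stressed cells alone, as wide as 2.59 for TDH1 under GS on the log2 scale. Staying within it therefore allows large moves, and these counts do not show that a value is stable. A change of sign was counted as turned round only where the reported value was at least 2-fold. Scaling GS and isotonic cells of batch 2 by ERCC reads, an alternative added after the data had been seen, turned the 4 GS values round, to 0.59 for TDH1, 0.60 for TDH2, 1.47 for TDH3 and 0.99 for their sum, and it moved the median gene by 2.28. Under AAS, summed reads gave a TDH3 value of -2.41 with TMM and -2.48 with DESeq2 size factors, and -2.29 and -2.36 for the sum of the 3 genes, and these scalings moved the median gene by -0.74 and -0.80. Why the values moved was not tested further. The TDH3 share difference under AAS was -6.73 over summed reads, and its sign changed in 4 of 13 alternatives. In hypotonic cells the sign changed in 7 of 18 alternatives for TDH2, 4 for TDH3 and 0 for TDH1. Under GS, without the detection filter 2311 genes were at least 2-fold higher and 1444 lower, against 803 and 442 with it, and with ERCC scaling the counts were 1473 and 128. Leaving out each cell in turn gave -1.54 to -1.14 for TDH3 under AAS, 0.59 to 1.34 for TDH1 in hypotonic cells, 7.47 to 10.4 points for its share there, and 12.8 to 16.3 points for the TDH3 share under GS. The cells the study kept, for batch 2 read from cell names in a figure of the paper, gave -1.60 for TDH3 under AAS, 8.85 points for the TDH1 share in hypotonic cells and 16.5 points for the TDH3 share under GS. Cells without A35, without F20X to F24X, and batch 2 cells of at least 100000 gene reads were also alternatives added after the data had been seen. No paired analysis was possible because the cells carry no replicate numbers shared between groups. The depth of batch 2 limits lowly read genes, of which no member is one.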

Other observations

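The 20 GS cells named Y2 had between 115 and 290386 reads on genes and were in no comparison above. TDH3 ran from 1350 to 34286 CPM in them, with a median of 12016 CPM, TDH2 from 0 to 138575 CPM with a median of 8654 CPM, and TDH1 from 0 to 21705 CPM with a median of 2487 CPM. TDH1 had no read in 6 of these cells and TDH2 in 2, and only 10 of the 20 had at least 100 TDH reads. In the 6 cells with at least 10000 reads on genes, TDH3 took 23.6 to 76.3% of the TDH reads with a median of 54.1%, TDH2 12.9 to 34.7% and TDH1 6.04 to 41.7%. No explanation was tested.

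PGK1, which acts directly after GAPDH, averaged 20.3 ± 31.2 CPM in GS cells and 24.1 ± 33.9 CPM in isotonic cells of batch 2, while TDH3 averaged 12812 and 28486 CPM in the same cells. In batch 1 PGK1 averaged 1706 ± 1872 CPM in AAS cells, 1255 ± 1462 CPM in hypotonic cells and 1724 ± 1391 CPM in isotonic cells.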
